A study of Caenorhabditis elegans with 18 samples.

Results

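The left arm of chromosome II of the nematode Caenorhabditis elegans was examined for contact with the nuclear envelope protein LEM-2 in early embryos. The arm was taken as the 500-bp windows of the deposited table that start between positions 500001 and 4879000, that is the left high-recombination arm without its outer 500 kb. These limits come from the genetic map and not from the LEM-2 values. They hold 8758 of the 200538 windows of the table, or 4.38 Mb, and 437 whole bins of 10 kb. For comparison, the centre of chromosome II held 14282 windows and its right arm 5518.

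LEM-2 was measured by chromatin immunoprecipitation and sequencing (ChIP-seq) in 3 strains, each with 3 immunoprecipitated (IP) and 3 input libraries, which makes 18 libraries in 6 groups. The wild type was N2 (Bristol), and the mutants were met-2(n4256) III and set-25(n5021) III. All embryos were collected before the bean stage from synchronised cultures, and the libraries carry the label 20 °C. No transgene is named for any strain, and whole embryos were used, so a level is an average over all embryonic cell types and fewer cells with contact cannot be told apart from less contact per cell. Per the labels the 3 replicates were independent biological replicates. The study addressed how histone H3 lysine 9 methylation and its enzymes bear on the anchoring of chromatin at the nuclear periphery.

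LEM-2 is an inner nuclear membrane protein of the LEM domain family, and its ChIP signal is used as a map of the chromatin that lies at the nuclear lamina. In C. elegans the autosomes have no single centromere, and their distal arms, which are rich in repeats, carry histone H3 lysine 9 methylation and touch the nuclear envelope, whereas the gene-dense centres mostly do not. MET-2, the worm relative of SETDB1, makes mono- and dimethylated H3K9, SET-25 makes trimethylated H3K9, and methylated H3K9 is bound at the envelope by the chromodomain protein CEC-4.

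Enrichment is given throughout as the log2 value of an IP library minus the mean log2 value of the 3 inputs of its strain. A value of 1 is 2 times the input, and the 3 values of a strain share that input mean, so that their standard deviation (SD) does not include variation among inputs. Depth ran from 8.73 M reads in the shallowest IP library (met-2, column b) to 64.45 M in the deepest input. The median 500-bp window of the arm held between 40 and 293 reads, and the arm took 3.97 to 4.22% of the reads of every input library. All libraries were scaled to one total, so the values are relative within a library. The table names its columns by strain and letter (a, b and c), and these letters are used here as names only.

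Reads elsewhere in the genome went against the labels of 2 columns and set 1 N2 column apart, and this bears on every value for set-25. An interval at III:8376501-8377500, empty or nearly so in all met-2 libraries, was also empty in the columns labelled set-25 b and c, in IP and input, but not in column a, where its input held 684 reads. A second interval at III:13287501-13289000 was empty or nearly so in all columns labelled set-25 and covered in all others. One more interval, at V:1646001-1647500, was missing in N2 column a and in the columns labelled set-25 b and c. Results for the columns labelled set-25 are therefore given by column where they turn on it, and with and without N2 column a where the call or direction changes. Means, SDs and tests over the 3 columns labelled set-25 describe that label, and these columns may not share 1 genotype. No such gap lay in the arm itself: 0 of its windows were missing in some inputs and present in the others.

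As a whole the arm was weakly enriched for LEM-2 in wild type and at input level in met-2. The mean over the arm was 0.30, 0.19 and 0.19 in the 3 N2 columns, which gives 0.23 ± 0.06 (SD, n = 3). In met-2 it was 0.00062, 0.01 and -0.06, or -0.02 ± 0.04 (SD, n = 3). The columns labelled set-25 had 0.17 in a, 0.02 in b and 0.03 in c, or 0.07 ± 0.08 (SD, n = 3). All 3 N2 columns lay above all met-2 columns and above all columns labelled set-25, with set-25 column a closest to them.

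The arm mean was lower than in N2 by 0.24 in met-2 and by 0.16 in the columns labelled set-25. Each exact two-sided permutation test gave p = 0.1, the smallest that 3 against 3 columns allow, and p = 0.1 after Benjamini-Hochberg adjustment over the 3 pairs of strains. Over all 10029 bins of the genome the median difference went the other way, by 0.20 in met-2 and 0.18 in the columns labelled set-25. Relative to each library's median bin the difference of the arm became -0.45 for met-2 and -0.31 for set-25. With set-25 column a alone and without N2 column a the difference labelled set-25 reversed to 0.03, and with the input of the same letter in place of the mean input its exact permutation p was 0.3.

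The contrast between the arm and the centre of the same chromosome, which is free of a shift common to both in a library, was much larger. It is not free of a difference between libraries in how far IP departs from input, and the part of such a difference was not tested. In N2 the arm exceeded the centre by 1.40, 0.94 and 0.96, with a mean of 1.10 ± 0.26 (SD, n = 3) or 2.14-fold. In met-2 the excess was 0.16, 0.28 and 0.30, with a mean of 0.24 ± 0.08 (SD, n = 3), which is 22.3% of that in N2. It was 0.88, 0.51 and 0.40 in set-25 a, b and c, with a mean of 0.59 ± 0.25 (SD, n = 3) or 54% of N2. The 3 labelled groups did not overlap, with N2 highest and met-2 lowest. Set-25 column a, at 0.88, lay next to the lowest N2 column, and c, at 0.40, next to the highest met-2 column. The differences were -0.85 for met-2 against N2, -0.51 for set-25 against N2 and -0.35 for met-2 against set-25, each with an exact permutation p of 0.1.

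On the deposited scale the centre was depleted, at -0.87 in N2, -0.26 in met-2 and -0.52 in the columns labelled set-25, so that arm and centre moved towards each other in the mutants. The right arm of chromosome II was more enriched than the left arm in all 9 IP libraries. The left arm lay below the right by 0.15 ± 0.05 in N2, 0.20 ± 0.06 in met-2 and 0.18 ± 0.09 in set-25 (SD, n = 3 each). These differences overlapped between strains, with exact permutation p between 0.5 and 0.8, all 0.8 after adjustment, and their sign in 2 of the pairs depended on single libraries. Among the 10 autosomal arms measured in the same way, the left arm of chromosome II ranked 9th in N2, between the right arm of I at 0.32 and the left arm of V at 0.15, which was not tested. Its difference from N2 in met-2 ranked 7th from the most negative, in a range from -0.43 on the right arm of V to -0.05 on the left arm of V.

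**Figure D1:**
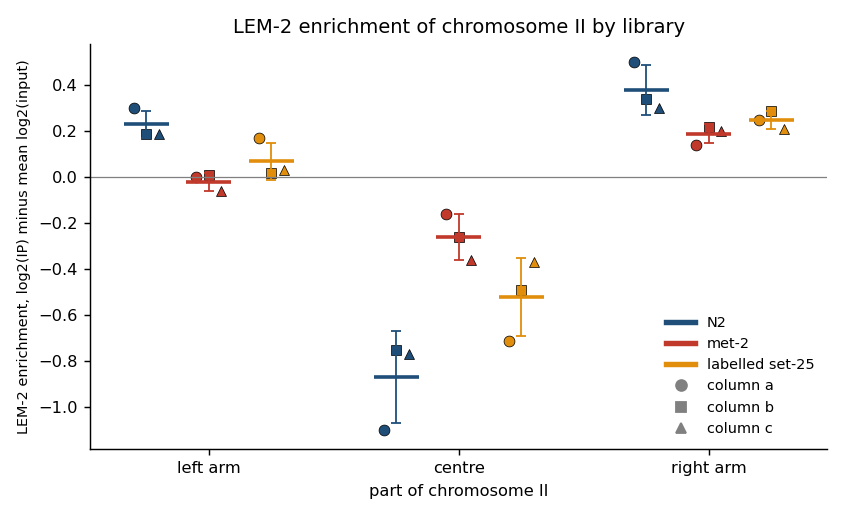
Mean LEM-2 enrichment (log2 of IP minus mean log2 of input, y axis) over the left arm, centre and right arm of chromosome II (x axis); points are single IP columns, bars the mean and error bars the SD of 3. The N2 points of the left arm lie at 0.19 to 0.30 and those of the centre near -0.87 on average, while the met-2 points of the left arm sit at 0.

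The arm was not evenly enriched: the mean LEM-2 signal was higher in its outer part, and the inner part held enriched and depleted bins side by side. The arm was divided at its midpoint, and the outer part, nearer the chromosome end (500001 to 2689500), had a mean of 0.50 ± 0.09 in N2, against -0.04 ± 0.04 in the inner part, nearer the centre (SD, n = 3 each). Of the 218 bins of the inner part, 75 were called higher and 75 lower than input in N2, beside 165 and 18 of 218 in the outer part. In met-2 the outer and inner parts stood at 0.09 ± 0.03 and -0.12 ± 0.07. In the columns labelled set-25 the outer part had 0.36, 0.14 and 0.15 in a, b and c and the inner part -0.02, -0.11 and -0.09. The outer part exceeded the inner part by 0.60, 0.49 and 0.52 in N2, by 0.14, 0.21 and 0.28 in met-2, and by 0.37, 0.25 and 0.24 in set-25 a, b and c.

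That gradient thus kept its direction in every IP library and was smaller in every mutant column than in any N2 column. The exact permutation p was 0.1 for each mutant against N2 (0.15 after adjustment) and 0.4 between the mutants, whose columns overlapped. The spread of the arm's bins, which includes this gradient, was smaller as well. The SD over the 437 bins was 0.54 ± 0.06 in N2, 0.27 ± 0.10 in met-2 and 0.40 ± 0.06 in set-25 (mean and SD over 3 columns), and the N2 columns, at 0.50 to 0.60, lay above all mutant columns (exact permutation p = 0.1, adjusted 0.15). The met-2 columns differed among themselves, with 0.18 in a, 0.26 in b and 0.37 in c.

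**Figure D2:**
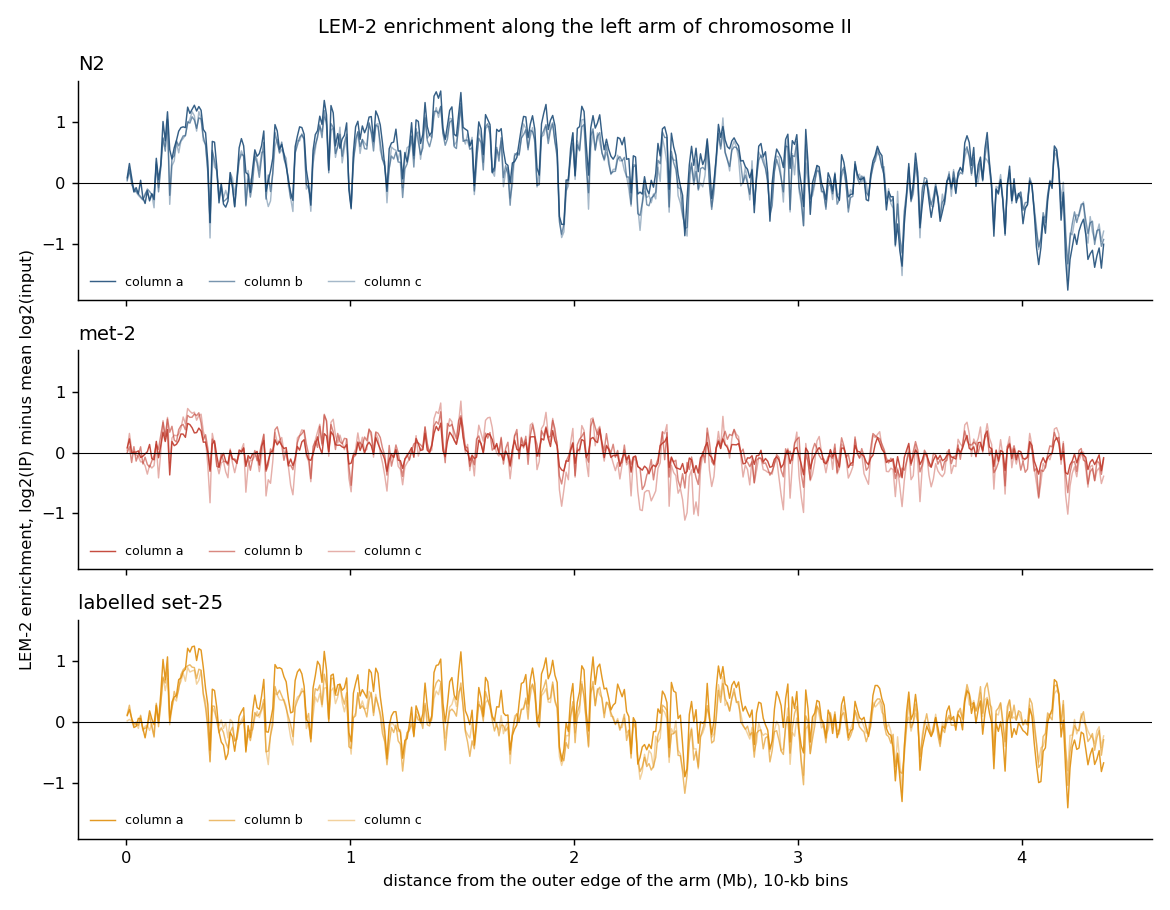
LEM-2 enrichment (log2, y axis) in 10-kb bins along the left arm by distance from its outer edge (Mb, x axis), with 1 line per IP column and 1 panel per strain. N2 bins reach from -1.76 to 1.51, whereas met-2 column a stays between -0.41 and 0.57, and the set-25 lines share many peaks with N2 at lower height in b and c than in a.

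Bins were called where limma gave an adjusted p under 0.05 over all 10029 bins. In N2, 241 of the 437 bins of the arm were higher in IP than in input, or 55.1%, where 32.3% of all bins were. A further 93 bins of the arm were lower, or 21.3% against 53.5% of all bins. In both directions together 334 bins of the arm, or 76.4%, were called, against 85.8% of all bins. Centred on each library's median, the split was 306 higher and 38 lower, which is 89.0% higher among the called bins in place of 72.2%. The centred fit called 78.7% of the arm, against 84.5% of all bins.

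The most enriched bin of the arm in wild type was II:1990001-2000000, with 1.49, 1.31 and 1.25 in N2 (limma adjusted p 1.40e-08 for 1.35 ± 0.12 SE over input). With at most 1 bin named per 100 kb, the next was II:1880001-1890000, with 1.50, 1.18 and 1.24, followed by II:1380001-1390000 with 1.36, 1.19 and 1.08. The other named enriched bins had means between 1.03 and 1.17 and began at 820001, 680001, 2530001, 2370001 and 1610001. All 8 lay in the outer part, and in each the met-2 columns and set-25 b and c were below every N2 column. The bins were chosen as the highest in N2, which by itself favours lower values in the mutants, so this is a description. Set-25 column a was within the N2 range at the bins beginning at 1380001, 820001, 680001 and 2370001 and below it at the other 4.

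At the other extreme, II:4700001-4710000 had -1.76, -1.32 and -1.60 in N2 (limma adjusted p 6.44e-08 for -1.56 ± 0.16 SE). II:3960001-3970000 had -1.36, -1.15 and -1.52, and it was also the named bin with the thinnest input, at 0.66 of the median. II:4570001-4580000 and II:4850001-4860000 had N2 means of -1.16 and -1.13. The remaining 4 named depleted bins had N2 means from -0.81 to -0.73, and 3 of them (beginning at 2440001, 2990001 and 870001) lay as dips in stretches that were otherwise enriched or mixed.

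In met-2 the enrichment of the arm over input was mostly gone. Of the 437 bins, 94 were called higher than input, or 21.5% where 22.4% of all bins were, and 84 lower, or 19.2% against 30.0%. The split centred on each library's median was 114 higher and 51 lower, or 69.1% higher in place of 52.8%. The centred fit called 37.8% of the arm, against 52.2% of all bins. On the deposited scale the called share of the arm in both directions was 40.7% against 52.3% of all bins. It was 24.9% against 34.0% without met-2 column b, and 10.3% against 18.3% without met-2 column c. The highest bin was again II:1990001-2000000, with 0.57, 0.60 and 0.84 in met-2. The lowest were II:2990001-3000000, with -0.34, -0.58 and -1.11, and II:4700001-4710000, with -0.36, -0.66 and -1.01, and in both column c was lowest.

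Compared with wild type, 206 bins of the arm fell in met-2, or 47.1% where 22.3% of all bins fell, and 31 rose, or 7.09% where 45.6% of all bins rose. Together 237 bins changed, or 54.2% against 68.0% of all bins. The median difference was -0.27 over the arm and 0.20 over all bins. Under median centring 305 bins fell and 20 rose, with 74.4% of the arm called against 64.0% of all bins. The outer part held 152 of the falls and 0 rises, and the inner part 53 falls and all 31 rises, with 1 further fall in the bin that spans the midpoint. The inputs alone gave 0 called bins in the arm between any 2 strains, against 0 or 1 in the whole genome.

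The largest fall was at II:3040001-3050000, with 0.57, 0.19 and 0.38 in N2 and -0.21, -0.41 and -0.81 in met-2 (difference -0.86 ± 0.23 SE, limma adjusted p 0.00399). At II:2270001-2280000 N2 had 1.10, 0.80 and 0.97 and met-2 0.10, 0.08 and 0.14 (difference -0.85 ± 0.14 SE, limma adjusted p 2.68e-04). At II:2030001-2040000 N2 had 0.61, 0.56 and 0.62 and met-2 -0.14, -0.23 and -0.30. So met-2 lay below input in every column of the bins beginning at 3040001 and 2030001, and just above it in the one beginning at 2270001. The other named falls began at 1770001, 1870001, 2700001, 1370001 and 1620001, with differences from -0.80 to -0.77.

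The rises in met-2 were rises from depletion towards input level. At II:4700001-4710000 the N2 values given above compare with -0.36, -0.66 and -1.01 in met-2 (difference 0.88 ± 0.23 SE, limma adjusted p 0.00334). At II:4830001-4840000 N2 had -1.19, -0.78 and -0.82 and met-2 -0.12, -0.14 and -0.30 (difference 0.74 ± 0.15 SE, limma adjusted p 7.94e-04). All 6 named rises began at or beyond 3950001, and all 6 remained below 0 in every met-2 column. The bins beginning at 4130001 and 4370001, with differences of 0.40 and 0.39, no longer passed when values were centred on each library's median.

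Among the columns labelled set-25, column a retained more of the arm's enrichment than any met-2 column, while the arm means of b and c, 0.02 and 0.03, were close to the met-2 values. Over input, 157 bins were called higher, or 35.9% against 29.0% of all bins, and 91 lower, or 20.8% against 43.7% of all bins. Centred on the median the split was 203 and 58, or 77.8% higher in place of 63.3%. The centred fit called 59.7% of the arm, against 73.0% of all bins. Without column a, 135 bins were called higher, beside 110 in met-2 in the same fit. In both directions it called 52.2% of the arm in set-25 against 64.6% of all bins, and 47.6% against 57.6% in met-2. The highest named bin of the columns labelled set-25 was II:770001-780000, with 1.21, 0.92 and 0.89 in a, b and c. There N2 had 1.25, 1.01 and 0.97 and met-2 0.48, 0.61 and 0.72. There the columns labelled set-25 overlapped N2, and met-2 was below both. At II:660001-670000 they had 1.02, 0.72 and 0.74, beside 1.01, 0.74 and 0.75 in N2, so that they covered the same range.

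Against N2, 104 bins of the arm fell in the columns labelled set-25, or 23.8% where 10.6% of all bins fell, and 25 rose, or 5.72% where 19.8% of all bins rose. Centred on the median, 143 fell and 11 rose, or 7.14% rises among the called bins in place of 19.4%. The centred fit called 35.2% of the arm, against 19.5% of all bins. On the deposited scale 129 bins were called in both directions together, or 29.5% against 30.4% of all bins. This count rested on single libraries: 37 bins were called without N2 column a (8.47% against 2.67% of all bins), 29 without set-25 b (6.64% against 1.91%) and 32 without set-25 c (7.32% against 2.27%). Without set-25 a it was 224 (51.3% against 55.8%). With column a as the only column labelled set-25, which assumes that it varies like the other groups, 0 bins were called by limma and 53 had an unadjusted p under 0.05. Without N2 column a as well, it was 0 bins and 49.

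The falls were concentrated in the stretch from 1.6 to 2.3 Mb, whose limits were chosen after the values were seen. There N2 had 0.77, 0.58 and 0.61, met-2 0.08, 0.13 and 0.11, and set-25 0.25 in a, 0.0019 in b and 0.06 in c. Columns b and c thus lay at or below the lowest met-2 column, and column a lay above every met-2 column and below every N2 column. With a as the only column labelled set-25, limma called 6 of the 70 bins lower in met-2 than in it, and 12 without N2 column a as well. Of the 70 bins of the stretch, 62 fell in the columns labelled set-25 and 58 in met-2. The stretch held 32 of the 37 called bins without N2 column a, 27 of the 29 without set-25 b and 30 of the 32 without set-25 c. Column a alone was lower than the N2 mean by 0.40 in the stretch, b by 0.65 and c by 0.60.

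Within it the largest falls were at II:2020001-2030000 and II:1920001-1930000. In the first N2 had 0.86, 0.71 and 0.81, and set-25 had 0.09, -0.33 and -0.21 in a, b and c (difference -0.94 ± 0.13 SE, limma adjusted p 2.37e-04). In the second N2 had 0.72, 0.62 and 0.73, and set-25 -0.02, -0.46 and -0.27 (difference -0.94 ± 0.12 SE, limma adjusted p 2.01e-04). With at most 1 bin named per 100 kb, the next was II:1740001-1750000, which had 0.50, 0.24 and 0.39 in N2 and -0.31, -0.45 and -0.33 in set-25 (difference -0.74 ± 0.12 SE, limma adjusted p 0.00118). These 3 bins stayed called without any single library. They were lost with column a as the only one labelled set-25. The other 5 named falls, with differences from -0.62 to -0.55, were lost without 1 or more single libraries, set-25 b among them.

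**Figure D3:**
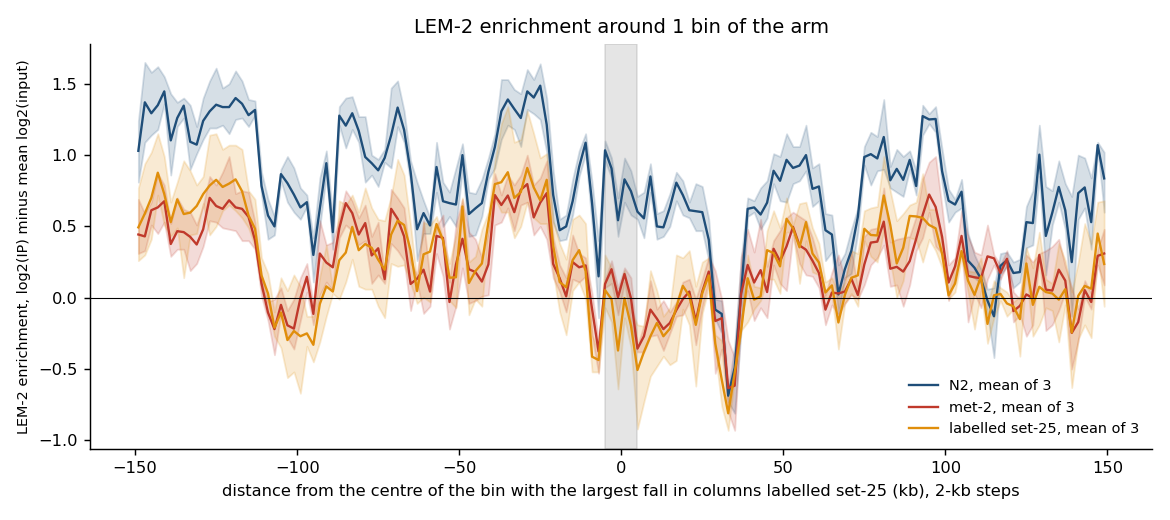
LEM-2 enrichment (log2, y axis) in steps of 2 kb by distance from the centre of II:2020001-2030000 (kb, x axis); lines are the mean of 3 IP columns, shading their range, and the grey band the bin itself. In the bin the mean is 0.79 in N2, 0.08 in met-2 and -0.15 in set-25, and most peaks and dips of N2 have a smaller counterpart in both mutant lines.

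The columns labelled set-25 had their most negative difference, -0.66, in 2 neighbouring segments. In II:1700001-1800000 N2 had 0.60, 0.39 and 0.50. Met-2 had -0.04, -0.04 and -0.12 there, and set-25 had -0.11, -0.24 and -0.15. All mutant columns were below input and all N2 columns above it. In the next segment, II:1800001-1900000, N2 had 1.07, 0.83 and 0.87, met-2 0.18, 0.25 and 0.25, and set-25 0.39, 0.21 and 0.19, so that the fall in met-2, of 0.70, was the most negative of the 44 segments of 100 kb while all columns stayed above input.

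Outside that stretch the columns differed in how far they left the wild-type level. The limits of the other stretches given below, up to the inner end of the arm, were also chosen after the values were seen. From 0.6 to 0.9 Mb the N2 columns had 0.67, 0.51 and 0.49, and set-25 had 0.62, 0.44 and 0.39, or 87.1% of the N2 mean. Met-2 had 0.17, 0.30 and 0.24 there, or 42.7% of N2. Set-25 column a was thus within the N2 range, b and c were below it, and the met-2 columns were lowest. Of 30 bins, 19 were called lower in met-2 and 1 in set-25, or 9 in set-25 without column a. From 0.9 to 1.6 Mb the N2 mean was 0.39 ± 0.07, the met-2 mean 0.02 ± 0.03, and set-25 had 0.34, 0.14 and 0.13.

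Between 2.7 and 3.1 Mb the N2 columns had 0.28, 0.06 and -0.01. Met-2 had -0.15, -0.19 and -0.43 and set-25 had -0.01, -0.36 and -0.33, so b and c lay within the met-2 range and a lay with the lowest N2 column. From 3.5 to 4.4 Mb all strains were near input: N2 stood at -0.03 ± 0.03, met-2 at -0.07 ± 0.05 and set-25 at -0.02 ± 0.01 (SD, n = 3 each). Of 90 bins 7 fell and 5 rose in met-2 and 0 were called in set-25 on the deposited scale. Centred on each library's median, 50 fell and 1 rose in met-2 and 5 fell in set-25.

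At its inner end the arm ran into the depleted centre. From 4.4 Mb to the boundary N2 had -0.60, -0.43 and -0.43, met-2 -0.08, -0.15 and -0.19, and set-25 -0.31 in a, -0.07 in b and -0.06 in c. All mutant columns were above all N2 columns, with 26 of 47 bins called higher in met-2 and 25 in set-25. Of all bins of the genome, 45.6% were called higher in met-2 and 19.8% in set-25. Centred on the median, 19 of the 47 bins were higher and 4 lower in met-2, and 11 were higher in set-25. The 25 rises became 1 without N2 column a, 0 without set-25 b or without set-25 c, 0 with column a alone, and 36 without set-25 a. The largest rise in the columns labelled set-25 was at II:4790001-4800000, with -1.25, -0.83 and -0.98 in N2 and -0.70, -0.32 and -0.15 in set-25 (difference 0.63 ± 0.17 SE, limma adjusted p 0.0206). It and the other 2 named rises, at the bins beginning at 4500001 and 4600001, were no longer called without N2 column a, without set-25 b or without set-25 c. In the last segment, II:4800001-4879000, N2 had -1.15, -0.81 and -0.78 and met-2 -0.13, -0.27 and -0.33, a difference of 0.67 and the largest rise of any segment. Set-25 column a was 0.30 above the N2 mean there and b and c 0.65 on average. The 100 kb on the other side of the boundary had -1.41, -0.99 and -1.05 in N2 and -0.29, -0.50 and -0.64 in met-2, so that met-2 was above all N2 columns. Set-25 had -1.09 in a, within the N2 range, and -0.74 and -0.56 in b and c, above it. The 100 kb beyond the outer limit, II:400001-500000, had 0.16 ± 0.05 in N2, 0.28 ± 0.07 in met-2 (SD, n = 3 each) and -0.01, 0.19 and 0.11 in set-25.

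Over all 44 segments, met-2 lay below all N2 columns in 31, above all in 6 and overlapped them in 7. The columns labelled set-25 lay below all N2 columns in 15, above all in 8 and overlapped in 21. Taken singly, set-25 column a was below the N2 range in 18 segments, b in 31 and c in 30, beside 31, 32 and 36 for met-2 a, b and c. The difference between these counts was not tested. The same counts over all segments of the genome are not given here, so they cannot be read as particular to the arm. The mean inputs of the mutants differed from those of N2 by only -0.05 to 0.08 in these segments.

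**Figure D4:**
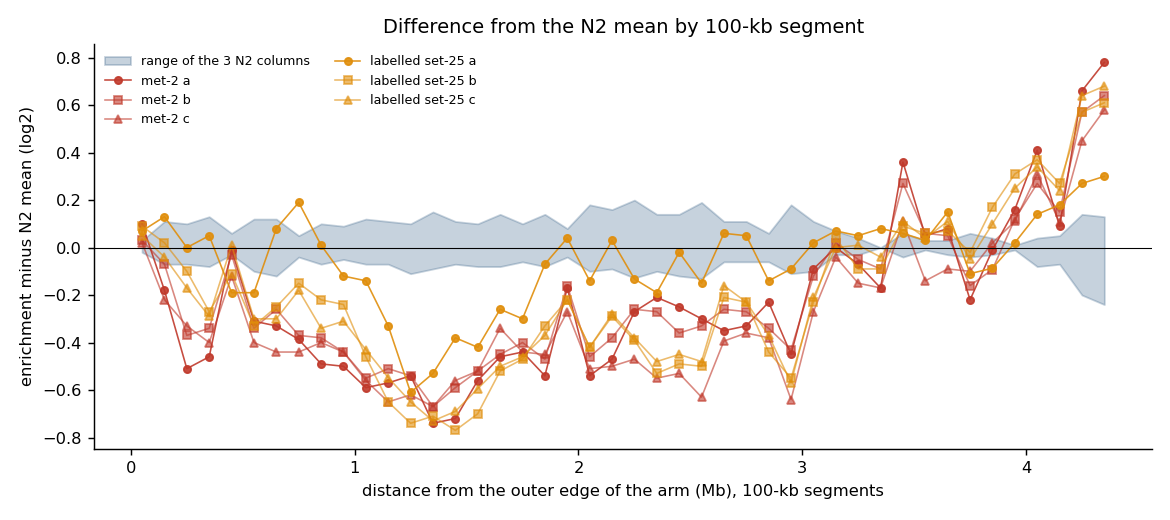
Difference of each mutant IP column from the N2 mean (log2, y axis) in 100-kb segments by distance from the outer edge of the arm (Mb, x axis); the shaded band is the range of the 3 N2 columns. Met-2 and set-25 b and c run mostly below the band over the outer part and beyond, column a is farthest below it in the segments from 1600001 to 2300000, and all lines rise above it at the inner end.

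Runs of at least 3 adjacent called bins gave the domains of the arm in wild type. N2 had 25 enriched runs with 206 bins and 2060 kb in all, with a median length of 50 kb, and 11 depleted runs with 61 bins and 610 kb. The runs were chosen on N2, which favours differences from N2 in them. The values of the mutants and the counts of bins called against N2 are therefore a description. Of all bins of the genome, 22.3% were called lower and 45.6% higher in met-2, and 10.6% lower and 19.8% higher in set-25. The longest was II:1740001-2050000, 310 kb with 0.95, 0.76 and 0.81 in N2, 0.14, 0.21 and 0.20 in met-2 and 0.33, 0.06 and 0.12 in set-25, and all 31 of its bins were called lower in both comparisons with N2, which share the N2 libraries. In II:700001-870000, 170 kb, N2 had 0.93, 0.77 and 0.76, met-2 0.27, 0.42 and 0.43 and set-25 0.84, 0.64 and 0.59, with 14 of 17 bins called lower in met-2 and 1 in set-25. The next 2, II:1330001-1490000 and II:2570001-2730000, each 160 kb, had N2 means of 0.76 and 0.56 and met-2 means of 0.22 and 0.09. Set-25 a, b and c had 0.69, 0.48 and 0.37 in the first and 0.58, 0.23 and 0.22 in the second.

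The longest depleted run was II:4690001-4870000 at the inner end, 180 kb with -1.09, -0.74 and -0.76 in N2, -0.15, -0.25 and -0.36 in met-2 and -0.57, -0.27 and -0.21 in set-25. The next in length differed in how the columns labelled set-25 stood. II:3910001-3990000, 80 kb, had -0.63 in N2, -0.29 in met-2 and -0.58, -0.52 and -0.48 in set-25 a, b and c, with 3 of 8 bins called higher in met-2 and 0 in set-25. II:4550001-4620000, 70 kb, had -0.69 in N2, -0.28 in met-2 and -0.56, -0.29 and -0.31 in set-25, with 5 of 7 bins called higher in met-2 and 3 in set-25.

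To read levels in libraries that had no part in choosing the bins, the bins were put in 5 classes of equal size by 1 N2 column with its own input and read in the others. With N2 column b as the guide, the classes had means of -0.54, -0.06, 0.28, 0.59 and 0.94 in the other N2 columns, from lowest to highest. The same classes had -0.31, -0.15, -0.03, 0.09 and 0.32 in met-2 and -0.40, -0.09, 0.05, 0.25 and 0.53 in the columns labelled set-25. Set-25 a, b and c had 0.74, 0.44 and 0.41 in the highest class and -0.45, -0.39 and -0.35 in the lowest. Every strain thus kept the order of the classes, over a narrower range in both mutants. Compared with the other N2 columns, the highest class differed by -0.63 in met-2 and -0.41 in set-25, and the lowest class by 0.24 and 0.14. With N2 column a as the guide these were -0.52 and -0.32, and 0.23 and 0.17, and with column c -0.64 and -0.42, and 0.16 and 0.07.

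**Figure D5:**
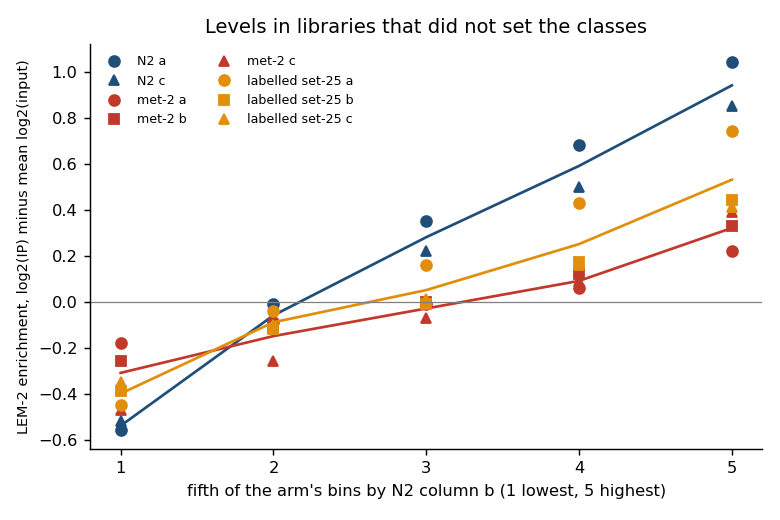
LEM-2 enrichment (log2, y axis) of the arm's 10-kb bins in 5 classes ranked by N2 column b (x axis); points are single IP columns that did not set the ranking, and lines their mean by strain. The N2 line runs from -0.54 to 0.94, the line of the columns labelled set-25 from -0.40 to 0.53 and the met-2 line from -0.31 to 0.32.

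At the full resolution of 500 bp, 4772 of the 8758 windows of the arm, or 54.5%, were above input in all 3 N2 columns, and 1941, or 22.2%, were below in all 3. In met-2, 2454 windows were above input in all 3 columns and 2244 below. In the columns labelled set-25 it was 3381 and 2137. Of the windows above input in all N2 columns, 45.5% were so in met-2 and 61.1% in set-25, beside 28% and 38.6% of all windows of the arm. By single column, 67.7, 68.5 and 70.8% of them were above input in met-2 a, b and c, and 89.4% in set-25 a, 73.2% in b and 75.2% in c. Of all windows of the arm it was 50.3, 54.1 and 48.3% in met-2 and 62.9, 53.7 and 55.6% in set-25. The same shares over all windows of the genome are not given here. The central 90% of windows by strain mean ran from -0.89 to 1.13 in N2, from -0.60 to 0.53 in met-2 and from -0.71 to 0.79 in set-25. The median window of the arm held 40 reads in met-2 column b and 221 in N2 column a, and the part of depth in these shares was not tested.

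The fine pattern extended well beyond single windows. Between different N2 columns with separate inputs, windows correlated with a mean Pearson r of 0.78 at the same place, 0.66 at a distance of 2 kb, 0.46 at 10 kb, 0.29 at 50 kb and 0.18 at 200 kb. In met-2 the values were 0.33, 0.31, 0.19, 0.10 and 0.01, and in set-25 0.67, 0.56, 0.35, 0.15 and -0.02. These are descriptions over 8358 to 8758 pairs of windows, which are not independent, and they share depth and base composition along the arm. Over 10-kb bins the profile of N2 correlated with that of met-2 with r from 0.73 to 0.82. With that of the columns labelled set-25 it correlated with r from 0.69 to 0.91. Among columns of 1 label, which share an input mean, r was 0.95 to 0.98 in N2, 0.86 to 0.93 in met-2 and 0.85 to 0.96 in set-25.

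Between met-2 and the columns labelled set-25, 0 of the 437 bins passed in limma, against 0.419% of all bins (0.389% higher and 0.0299% lower). At an unadjusted p under 0.05 there were 74 bins, and limma-voom on the recovered reads called 20, or 4.58% against 11.0% of all bins. When column a was the only column labelled set-25, limma called 73 bins of the arm lower in met-2 and 1 higher, or 16.9% of the arm against 14.4% of all bins. Without N2 column a as well it was 129 and 5, or 30.7% against 34.7%. The arm mean differed by -0.09 and the median bin by -0.09. A difference between met-2 and the columns labelled set-25 was thus detected in the arm only under the settings that leave out b and c, those without N2 column a, met-2 column c or set-25 column c (12, 4 and 9 bins; 0 without any of the other 6 libraries), the 20-kb bins, the IP values without input and limma-voom.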

How the data were processed

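LEM-2 IP and input libraries of 3 strains (18 columns, 3 per group) were read from 1 table of 500-bp windows. The deposited values are on a log2 scale, and from the values each is log2 of scaled reads plus 2, with all libraries scaled to 35.17 M reads. Whole reads were recovered for 100.0% of them (within 0.01). For aligner, counting tool and duplicate treatment: not given in the sources used here. The submitters' processing notes name ce10, but the table's windows on chromosome II end at 15279323, so coordinates are those of the table and no gene or sequence was placed on them.

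Columns carry letters, not replicate numbers. The genome gave 10029 bins of 10 kb, each the mean of its windows. The test of bins used limma 3.58.1 under R 4.3.3 (trend, 6 group coefficients, 12 residual degrees of freedom), with Benjamini-Hochberg adjustment over all bins and a threshold of 0.05, after a test on simulated data. Arm values were compared by exact two-sided permutation over columns. Centres and arms follow the published recombination domains without the outer 500 kb. Named bins were the 8 (over input in mutants, or between mutants, 5) largest changes in each direction with non-overlapping columns, at most 1 per 100 kb. Only 6 rises in met-2 and 3 in set-25 against N2 met this rule, and 0 bins between the mutants. Alternatives covered scaling, bin size, bin averaging, low and high input windows, a replicate block, single libraries, input choice, arm limits, voom and trend, and IP without input, the last chosen after seeing the data. The arm, lists and tests were chosen with earlier results of these data known. Python 3.11.15, numpy 2.4.6, pandas 2.3.3 and matplotlib 3.10.9 were used otherwise.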

Additional observations from a re-analysis of the deposited data

Results flagged for a closer look

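Differences between strains in the IP-minus-input contrast were found in 237 bins of the arm for met-2 against N2, in 129 for the columns labelled set-25 against N2 and in 0 for met-2 against set-25, by limma's test of that difference.

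In 7 segments of 100 kb all N2 columns were above input and all met-2 columns below it, and in 3 segments the same held for all columns labelled set-25. The 3 segments begin at 1700001, 2700001 and 3300001, and they are among the 7. In the first the N2 mean was 0.50, the met-2 mean -0.07 and the set-25 mean -0.17. In the second, at II:2700001-2800000, the signs rest on values near 0, with 0.0018 in N2 column c and -0.0021 in set-25 column a. These opposite signs were not tested as a difference, and their number over all segments of the genome is not given here.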

How the results depend on the processing

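Directions of the arm mean, the arm-to-centre contrast, the gradient and the spread between mutants and N2 held under every alternative, except that the arm mean of set-25 against N2 became 0.03 with column a alone and no N2 column a. The left-minus-right difference changed sign for set-25 against N2 (0.08 with column a alone, 0.07 without N2 column a as well), for met-2 against N2 (0.0018 with the median over bins) and for met-2 against set-25 (0.03 with that median). Bins called for set-25 against N2, 29.5% of the arm, became 0 with column a alone, with or without N2 column a, and 49.0% for IP without input. For met-2 against set-25, 0 became 16.9% with column a alone, 30.7% without N2 column a as well, 0.459% with 20-kb bins, 4.58% with limma-voom and 16.9% for IP without input.

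Leaving out single libraries gave these ranges. Bins called were 69.3 to 78.5% for N2 over input, 10.3 to 47.6% for met-2 over input, 49.4 to 59% for set-25 over input, 43.9 to 58.4% for met-2 against N2, 6.64 to 51.3% for set-25 against N2 and 0 to 2.75% between the mutants. In the fits at these limits the shares of all bins were, in the same order, 81.9 and 87.1%, 18.3 and 57.6%, 65.5 and 73.1%, 53.2 and 70.2%, and 1.91 and 55.8%. Beside the 2.75% between the mutants, 3.66% of all bins were called. In the order met-2 against N2, set-25 against N2 and met-2 against set-25, the arm mean ranged from -0.28 to -0.19, -0.22 to -0.1 and -0.13 to -0.02; the arm minus the centre from -0.94 to -0.69, -0.67 to -0.34 and -0.47 to -0.19; the left minus the right arm from -0.08 to -0.01, -0.08 to 0.02 and -0.07 to 0.03; outer minus inner part from -0.37 to -0.29, -0.3 to -0.21 and -0.11 to -0.03; and the spread from -0.33 to -0.21, -0.17 to -0.11 and -0.2 to -0.07. The causes were not tested.

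With column letters as a replicate block the called share was 54.9% for met-2 against N2 and 30.7% for set-25 against N2, beside 68.6% and 30.9% of all bins. Deviations from the group mean correlated between columns of one letter with r from -0.53 to 0.65 for IP and -0.36 to 0.83 for input. All letters were over 0.1 for N2 with set-25 in IP (0.61, 0.19 and 0.65) and for met-2 with set-25 in input (0.65, 0.23 and 0.83), but no pair of strains had this in both kinds of library. Of 9 pairs each, 2 in IP and 5 in input correlated best with their own letter, so the letters were not taken as pairs. Limma-voom on the recovered reads called 63.2% of the arm's bins for met-2 against N2 and 36.8% for set-25 against N2, beside 71.8% and 32.4% of all bins. Depth limits single windows most in met-2 column b.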

Other observations

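In the arm, 52 windows had at least 2 times the median input coverage. Their LEM-2 enrichment was 0.55, 0.64 and 0.70 in N2, 0.16, 0.15 and 0.36 in met-2, and 0.55, 0.40 and 0.41 in set-25 a, b and c. The other 8706 windows had means of 0.22 ± 0.06 in N2, -0.02 ± 0.04 in met-2 and 0.07 ± 0.08 in set-25 (SD, n = 3 each), so the windows of high input lay above the rest in every IP library. How the authors treated reads that map to more than 1 place is not given in the sources used here, and its part in these values was not tested.

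One such interval, II:4641001-4645000, had 17.6 times the median input. It lay in a run of 30 kb called enriched in N2, II:4640001-4670000, with 0.47, 0.41 and 0.38. The arm end that holds this run, from 4.4 Mb to the boundary, was depleted on average in wild type. The enrichment of the interval was 0.68, 0.63 and 0.54 in N2, 0.10, 0.14 and 0.43 in met-2 and 0.62, 0.53 and 0.25 in set-25. At II:3796001-3797500, with 8.37 times the median input, N2 had -0.20, 0.08 and 0.33, so that high input did not go with enrichment everywhere. Short peaks at II:857001-857500 and II:2002001-2002500 kept most of their level in met-2, with 0.61, 0.88 and 1.25 beside 1.10, 1.09 and 1.07 in N2 at the first, and 0.59, 1.07 and 1.36 beside 1.10, 1.13 and 1.12 at the second; each is 1 window of 500 bp, chosen after its values were seen. One window, II:504001-504500, held at most 2 reads in any of the 9 inputs, and no enrichment can be read there.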
